A study of Mus musculus with 20 samples.

Results

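Protein kinase A (PKA) is the main kinase that cyclic AMP (cAMP) switches on, and 7 genes of this system were followed here in human and in mouse liver cells after knockdown of HuR, an RNA-binding protein encoded by ELAVL1. The genes were 2 regulatory subunits (PRKAR2A and PRKAR1A), 2 catalytic subunits (PRKACA and PRKACB), the anchoring protein AKAP1, and 2 nuclear effectors (CREB1 and CRTC2). They were taken by symbol, ignoring case, from the 16767 symbols that the human and the mouse table share, and all 7 were present in both. The set was chosen by the WT contrast of HuR KD with LacZ, in which Prkar2a ranked first among the lowered mouse genes, so its own values in WT mice are given below as a description and without a test.

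PKA is held inactive as a complex of regulatory and catalytic subunits, and cAMP binding to the regulatory subunits frees the catalytic subunits to phosphorylate their targets. In the liver, glucagon and adrenaline raise cAMP during fasting, and PKA then turns on glycogen breakdown and, through CREB and its coactivator CRTC2, genes of gluconeogenesis. Type I regulatory subunits such as PRKAR1A are largely cytosolic, whereas type II subunits such as PRKAR2A are mostly tethered to membranes and organelles by A-kinase anchoring proteins (AKAPs).

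Liver RNA came from 20 mice in 4 groups. The humanized mice were TK-NOG mice, a strongly immune-deficient strain whose hepatocytes carry a viral thymidine kinase under an albumin promoter. They received 25 mg/kg ganciclovir at 8 to 9 weeks of age, which kills the cells with the kinase, and a week later 1000000 cryopreserved primary human hepatocytes from a commercial supplier, injected into the spleen. Only mice with over 0.5 mg/ml human albumin in serum, measured 8 to 12 weeks after transplantation, were used. Of these, 4 were given an adenovirus with an shRNA against human HuR (HuR KD) and 4 the control virus (LacZ). The WT mice were male C57BL/6, and 6 were given an adenovirus with an shRNA against mouse HuR and 6 the LacZ virus. Every mouse, controls included, thus carried 2000000000 pfu of adenovirus, and tissue was harvested 7 days later, with the animals fasted for 4 h. The hosts, the shRNAs and the genome sequence used for alignment differed between the humanized and the WT set, so that the species of the liver cells cannot be told apart from these.

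The deposited values are TPM (transcript abundance per gene length), scaled to 1000000 in each library, over human genes alone in the humanized livers. Reads recovered from the TPM ranged from 2670469 to 20302454 per humanized liver and from 12960373 to 44668272 per WT liver, apart from WT LacZ replicate 2 with 1423985. HuR KD replicate 4 and LacZ replicate 2 of the humanized livers stood apart, since they correlated better with each other than with any liver of their own group and had 51.8% and 51.7% of their TPM on mitochondrial genes, against 29.0% to 38.5% in the other humanized livers. WT HuR KD replicates 3 and 6 also correlated best with a LacZ liver, by small margins (r = 0.9887 against 0.9860 and 0.9612 against 0.9609 within their group). The hepatocyte markers ALB, APOA1, TTR, SERPINA1 and HNF4A were expressed in every humanized liver (summed TPM from 37601 to 87202), the T and NK cell markers CD3D, CD3E, CD8A, NKG7 and GZMA were at 0, and so were 4 of 8 macrophage markers (CLEC4F, MARCO, VSIG4 and C1QA). A listed 0 is not by itself a sign that a cell type was absent, since C1QA is among 28 symbols at 0 that include genes every cell uses. HuR mRNA checked the labels. ELAVL1 was 4.05, 2.37, 3.54 and 3.90 TPM in HuR KD and 5.76, 4.77, 6.17 and 5.99 TPM in LacZ humanized livers, and Elavl1 was 3.72 to 5.62 TPM in HuR KD and 8.58 to 10.7 TPM in LacZ WT livers. HuR mRNA was thus lower in every knockdown liver of either species, at 61.0% of the LacZ mean in human (limma adjusted p = 0.214) and 51.7% in mouse cells (limma adjusted p = 0.00105).

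The 7 mRNAs differed widely in level. In WT LacZ livers the order by TPM, which accounts for gene length, was Akap1 (88.5 ± 7.66, SD, n = 6), Prkaca (73.7 ± 7.11), Prkar2a (47.0 ± 2.86), Prkar1a (44.4 ± 4.17), Prkacb (21.7 ± 2.29), Crtc2 (15.4 ± 2.49) and Creb1 (5.60 ± 1.16). Prkar2a exceeded Prkar1a in only 4 of these 6 livers, so that the order of the regulatory subunits did not hold beyond the spread, and the ranges of Akap1 and Prkaca and of Prkacb and Crtc2 also overlapped. In humanized LacZ livers the order was PRKAR1A (30.5 ± 1.64, n = 4), AKAP1 (24.2 ± 4.47), PRKAR2A (15.7 ± 2.68), PRKACB (4.73 ± 0.844), CREB1 (3.54 ± 1.23) and CRTC2 (2.62 ± 1.87). The ranges of AKAP1 and PRKAR2A overlapped, as did those of PRKACB, CREB1 and CRTC2, whereas PRKAR1A stood above PRKAR2A in all 4 human livers. PRKACA, whose mouse counterpart was the most abundant subunit, was listed at 0 in all 8 humanized livers. It was 1 of 28 symbols listed at 0 there among the 1508 shared symbols with a mean of at least 50 TPM in WT livers, and genes that every cell uses, such as EEF1G, RPS25 and YWHAE (chosen after their values were seen), were at 0 as well. No level of PRKACA in the human cells can therefore be given.

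**Figure D1:**
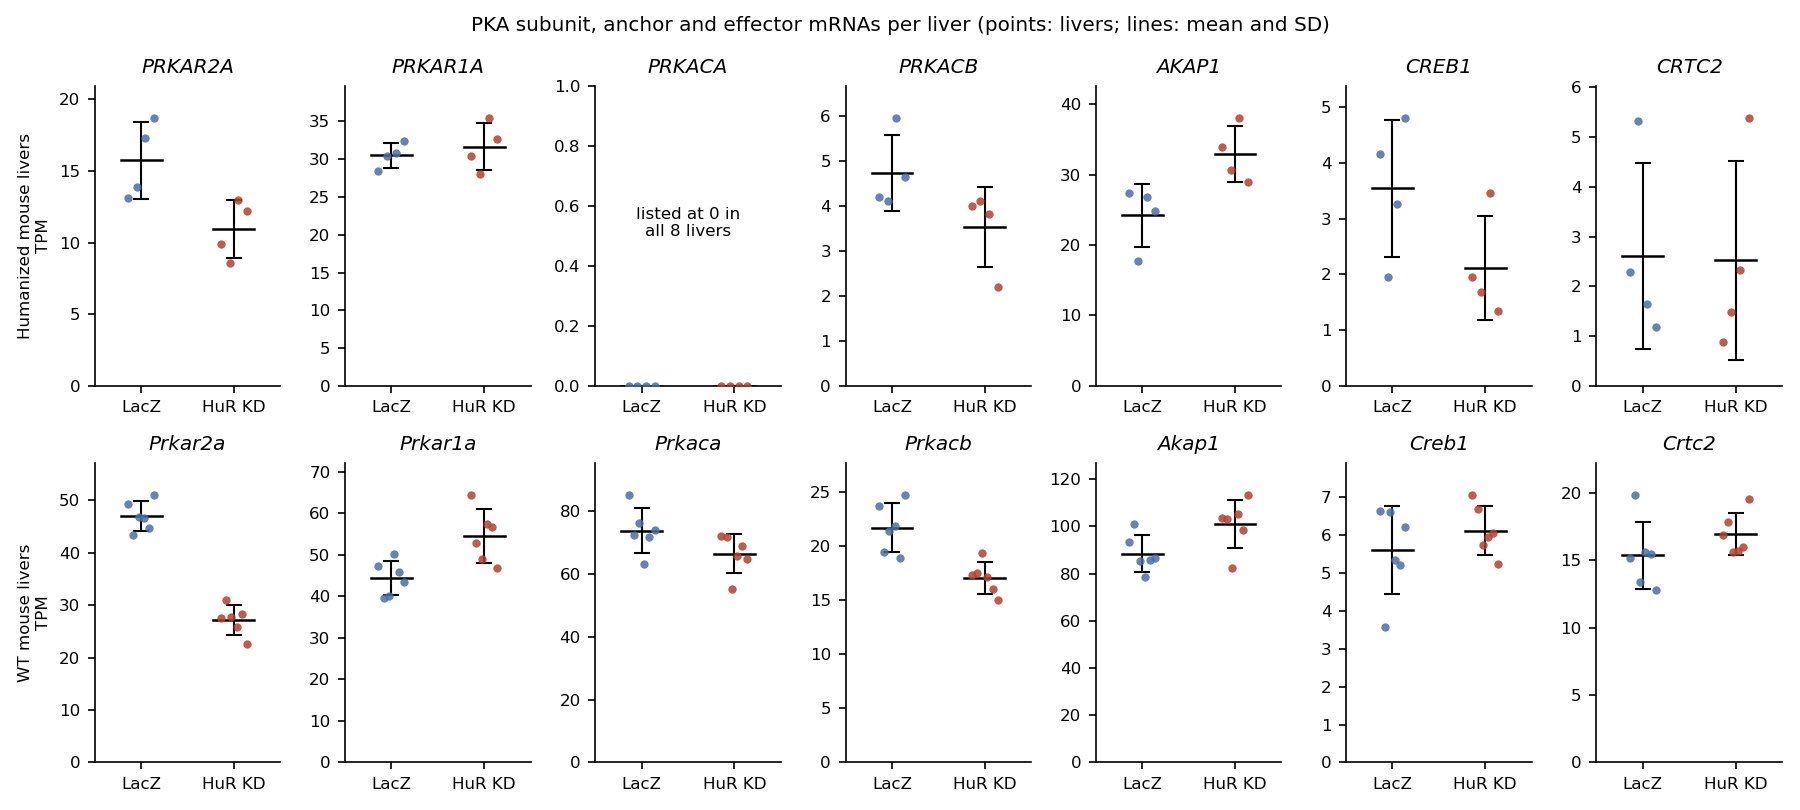
TPM of each of the 7 mRNAs in every liver, with humanized livers in the upper row (n = 4 per group) and WT livers in the lower row (n = 6 per group). Points are livers and lines are the mean and SD. HuR KD livers lie below all LacZ livers for PRKAR2A in both rows and for PRKACB in the upper row, and above all of them for AKAP1 in the upper row.

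Regulatory subunits. Prkar2a, which encodes the type II alpha regulatory subunit, lies on chromosome 9 (108689314 to 108750436, plus strand, GRCm38). In WT HuR KD livers it ranged from 22.6 to 31.0 TPM with a median of 27.7, and in LacZ livers from 43.3 to 51.1 TPM with a median of 46.7. All 6 knockdown livers lay below all 6 control livers, with a wide gap between them, and the mean was 57.8% of LacZ (log2 difference -0.77, SE 0.073, n = 6 per group). Of 15090 mouse genes tested, 2.49% had groups without overlap, 1.23% with lower values in HuR KD. The contrast chose the gene and is given with no test. In these bulk samples fewer cells of a type and less RNA per cell cannot be told apart.

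The human gene gives the same measure in mice that played no part in that choice. PRKAR2A was 9.91, 8.58, 12.96 and 12.23 TPM in the 4 HuR KD humanized livers and 13.08, 13.85, 17.27 and 18.67 TPM in the 4 LacZ livers. Every knockdown liver was below every control liver, although the highest of the former and the lowest of the latter nearly touched. The mean was 69.5% of LacZ, with a log2 difference of -0.49 (SE 0.175). It passed the unadjusted threshold used in the study but not adjustment over all genes (limma adjusted p = 0.322), and the two-sided exact permutation test gave p = 0.0286, the smallest that 4 against 4 livers allow. Across all 12738 human genes tested, 7.16% had groups without overlap, 5.03% with lower values in HuR KD. The call was lost (unadjusted threshold) without HuR KD replicate 1 or 2 or LacZ replicate 3 or 4, with log2 differences of -0.39 to -0.45, and when mitochondrial genes were left out of the scaling (-0.48), and without both livers that stood apart the difference was -0.60 and past that threshold.

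HuR binds U-rich and AU-rich stretches, often in 3′ UTRs, and the sequence of the mouse transcripts was searched on the sense strand for the letters ATTTA and TTTATTT, which can overlap each other. The longest annotated 3′ UTR of Prkar2a (transcript Prkar2a-201, 3442 bases, GENCODE M21) held ATTTA 6 times and TTTATTT 0 times. Among the 1183 3′ UTRs of tested genes within 20% of that length, 47.8% held ATTTA at least as often and 75.0% held TTTATTT at least once. For Prkar1a (2054 bases) the counts were 8 and 2, with 10.1% of UTRs of like length holding at least as many ATTTA. They were 6 and 3 for Prkacb (3014 bases, 41.9%), 17 and 4 for Creb1 (7170 bases, 34.2%), 3 and 0 for Prkaca (1026 bases, 26.8%) and 2 and 0 for Akap1 (963 bases, 44.8%), where the percentage is the same share of UTRs of like length, and 0 and 0 for Crtc2 (425 bases). The stretches of 30 bases with most motif letters are shown for Prkar2a, Prkar1a and Prkacb, the 3 subunits whose mRNA differed most in WT livers, with the motifs in capitals. They lie in the 3′ UTR at chr9:108747117-108747146 (plus strand), chr11:109669367-109669396 (plus strand) and chr3:146730749-146730778 (minus strand) of GRCm38, and whether HuR binds them was not measured.
Prkar2a: tgtggttaagggcATTTAgaaatcttgaaa
Prkar1a: tctaaATTTAaaaattaccacATTTAaagc
Prkacb: acTTTATTTActtttatgtatttcATTTAa

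Prkar1a encodes the type I alpha regulatory subunit and lies on chromosome 11 (109649405 to 109669656, plus strand). In WT livers it ranged from 46.8 to 64.5 TPM with HuR KD (median 54.8) and from 39.6 to 50.1 TPM with LacZ (median 44.6). Of the 6 knockdown livers, 4 were above all control livers, and the ranges overlapped. The mean was 123% of LacZ (log2 difference 0.29, SE 0.086), which passed the unadjusted threshold but not adjustment (limma adjusted p = 0.122), with p = 0.013 by the two-sided exact permutation test. It kept its direction and the unadjusted call under every alternative run, with adjusted p from 0.0572 to 0.253. Scaling without mitochondrial genes changes nothing in WT livers, where these genes are listed with 0% of the TPM. In humanized livers PRKAR1A was 30.45, 28.06, 35.42 and 32.68 TPM with HuR KD and 28.39, 30.45, 30.87 and 32.36 TPM with LacZ. The LacZ range lay inside that of HuR KD, and the log2 difference of 0.05 (SE 0.124, limma adjusted p = 0.929) did not pass any threshold.

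CREB binds cAMP response elements in promoters, and the mouse promoters in RefSeq (300 bases a start, GRCm38.p6) were searched for them on both strands. The full palindromic element TGACGTCA was found in 1.79% of 32851 promoters, and its half-site, TGACG or CGTCA, in 20.8%, a share that includes the full elements. Of the 7 genes, 6 had a promoter in the table, with 16 starts in all, and some windows of the same gene overlapped. Per start, as in these shares, 2 of 16 held the full element, both in Prkar1a, and 6 of 16 held a half-site, of which 3 were in Prkar1a and 1 each in Prkar2a, Prkacb and Prkaca. The 2 full hits were the same element, seen from overlapping windows, and their starts are among the 3 of Prkar1a with a half-site. The counts per start are therefore not independent. In Prkar1a the full element began 49 bases before a transcript start (window chr11:109650889-109650918, plus strand), and in Prkar2a a half-site began 4 bases before the start (window chr9:108692127-108692156, plus strand). These windows of 30 bases are shown because Prkar1a was higher and Prkar2a lower in WT livers, with the motif in capitals. A match of letters does not show that a site is used.
Prkar1a: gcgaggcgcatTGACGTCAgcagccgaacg
Prkar2a: cgcggccgcgtgCGTCAcaacccgggcgcc

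The 2 regulatory mRNAs were set against each other within each liver, as a description. In WT livers the ratio of Prkar2a to Prkar1a ranged from 0.930 to 1.18 with LacZ and from 0.428 to 0.587 with HuR KD, with means of 1.07 ± 0.102 and 0.502 ± 0.0629 (SD, n = 6). Prkar2a made up 51.2% of all regulatory mRNA, with Prkar1b and Prkar2b included, in control livers and 33.1% in knockdown livers. In humanized livers the ratio ranged from 0.455 to 0.577 with LacZ and from 0.306 to 0.374 with HuR KD, with means of 0.513 ± 0.0643 and 0.343 ± 0.0327 (SD, n = 4). The groups did not overlap in either species, as was already so for PRKAR2A alone. The WT ratio contains the value that the set was drawn up on. In humanized livers PRKAR1A differed by a log2 difference of only 0.05, so the ratio there mostly restates PRKAR2A. Among single genes tested, 7.16% of human and 2.49% of mouse genes had groups without overlap, and no such share was taken for ratios. The sum of all regulatory mRNAs, PRKAR1B and PRKAR2B included, was 92.0 ± 5.78 TPM with LacZ and 82.3 ± 7.84 TPM with HuR KD in WT livers. It was 50.3 ± 5.20 and 45.0 ± 5.69 TPM in humanized livers, with overlapping ranges in both species. In control livers PRKAR1A thus exceeded PRKAR2A in every humanized liver, while the WT ratio was near 1.

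**Figure D2:**
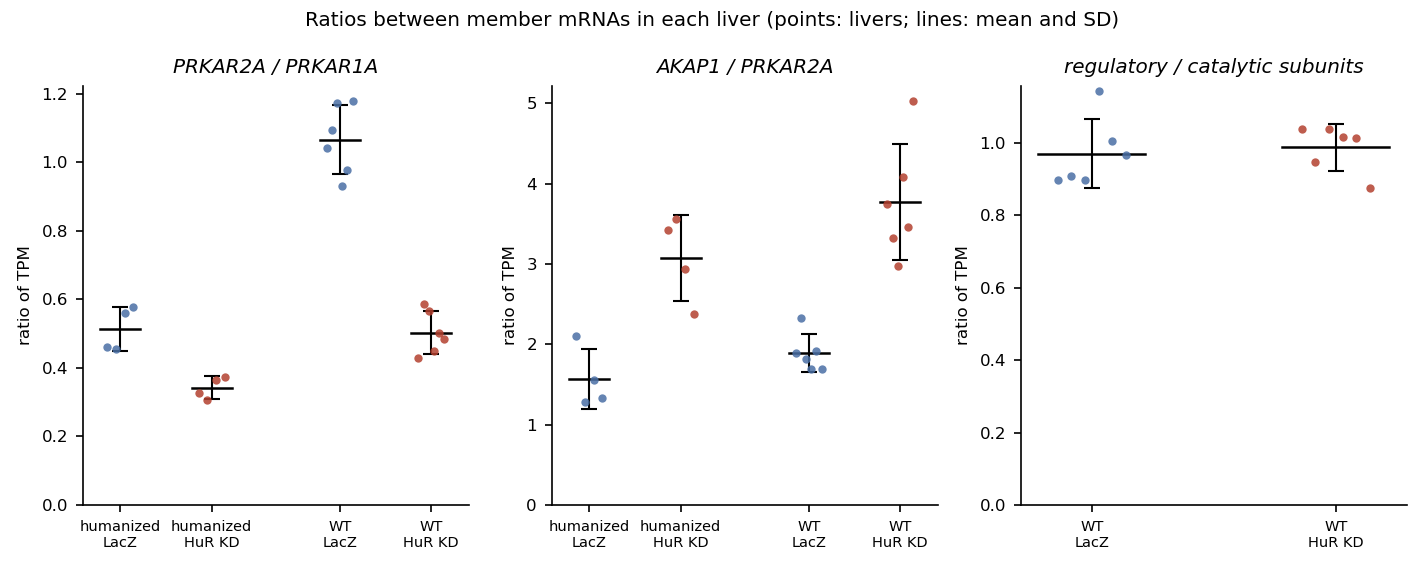
Ratios of TPM in each liver: PRKAR2A to PRKAR1A (left), AKAP1 to PRKAR2A (middle) and all regulatory mRNA to Prkaca plus Prkacb, for WT livers only (right). The regulatory mRNA on the right includes Prkar1b and Prkar2b, which are not members. Points are livers and lines are the mean and SD. HuR KD and LacZ livers are apart in the left and middle panels (WT means 0.502 and 1.07 on the left, 3.77 and 1.89 in the middle) and overlap on the right (0.987 and 0.969). The humanized ratio in the middle had to be apart, since AKAP1 and PRKAR2A were each apart there in opposite directions. The WT ratios contain the Prkar2a value by which the set was chosen.

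Catalytic subunits. Prkaca, which encodes the alpha catalytic subunit and lies on chromosome 8 (83972993 to 83996443, plus strand), ranged from 55.2 to 72.0 TPM with HuR KD (median 67.1) and from 63.2 to 85.1 TPM with LacZ (median 73.0) in WT livers. Only 1 knockdown liver lay below all controls, and the ranges overlapped. The mean was 89.9% of LacZ (log2 difference -0.15, SE 0.080), which did not pass the threshold (limma adjusted p = 0.397, two-sided exact permutation p = 0.0844) but passed the unadjusted one with median-of-ratios factors (-0.17), with quantile normalization (-0.16) and without LacZ replicate 4 (-0.19).

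Prkacb, which encodes the beta catalytic subunit, lies on chromosome 3 (146729574 to 146812990, minus strand). In WT livers it ranged from 15.0 to 19.4 TPM with HuR KD (median 17.2) and from 19.0 to 24.8 TPM with LacZ (median 21.7). Of the knockdown livers, 5 of 6 were below all control livers, and only HuR KD replicate 3 reached their range. The mean was 78.6% of LacZ, with a log2 difference of -0.33 (SE 0.079), which was past the unadjusted threshold and missed adjustment (limma adjusted p = 0.068, two-sided exact permutation p = 0.00433). The direction and the unadjusted call held under every alternative run, and the adjusted p ranged from 0.0223 to 0.163.

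In the humanized livers PRKACB was 4.001, 4.104, 3.82 and 2.20 TPM with HuR KD and 4.203, 4.113, 5.94 and 4.65 TPM with LacZ. The groups did not overlap, but the nearest livers of each group, HuR KD replicate 2 and LacZ replicate 2, were all but equal, and these values rest on 42 to 304 reads. Groups without overlap and with lower values in HuR KD were found for 5.03% of human genes tested. The mean was 74.7% of LacZ (log2 difference -0.35, SE 0.194). The difference did not pass the limma threshold (adjusted p = 0.531), while the exact permutation test was at its smallest value (two-sided, p = 0.0286), which groups without overlap always give. Without the 2 livers that stood apart the log2 difference was -0.24.

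The catalytic mRNAs together, Prkaca plus Prkacb, were 95.4 ± 8.21 TPM with LacZ and 83.4 ± 5.68 TPM with HuR KD in WT livers (SD, n = 6). The ratio of regulatory mRNA, Prkar1b and Prkar2b included, to catalytic mRNA was 0.969 ± 0.0954 with LacZ and 0.987 ± 0.0644 with HuR KD, and the ranges overlapped. Prkacb made up 22.8% ± 2.10 of the catalytic mRNA with LacZ and 20.6% ± 2.73 with HuR KD. The ratio of regulatory to catalytic mRNA contains the Prkar2a value by which the set was chosen.

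Anchor. AKAP1 tethers PKA, type II in the main, to the outer mitochondrial membrane. Its mean mRNA was higher with HuR KD than with LacZ in both sets of livers, and the mean of PRKAR2A was lower. Whether the 2 mRNAs go together within a group was not tested. In humanized livers AKAP1 was 33.86, 30.58, 38.00 and 29.01 TPM with HuR KD and 27.45, 17.70, 26.82 and 24.80 TPM with LacZ. All 4 knockdown livers were above all 4 control livers, and LacZ replicate 2, 1 of the 2 livers that stood apart, was the lowest. The mean was 136% of LacZ (log2 difference 0.44, SE 0.169), past the unadjusted threshold but not adjustment (limma adjusted p = 0.362), with the smallest exact permutation p that the design allows (two-sided, p = 0.0286). Of all human genes tested, 2.13% had groups without overlap and higher values with HuR KD. The call was lost (unadjusted threshold) without HuR KD replicate 1 (0.42) or 3 (0.37) or without LacZ replicate 2 (0.30), while without both livers that stood apart it was 0.36 and kept.

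Akap1 in WT livers, on chromosome 11 (88830792 to 88864586, minus strand), ranged from 82.5 to 113 TPM with HuR KD (median 103) and from 78.7 to 101 TPM with LacZ (median 86.2). In 4 of 6 knockdown livers it was above all control livers, while HuR KD replicate 3 lay near the bottom of their range. The mean was 114% of LacZ (log2 difference 0.19, SE 0.080). It passed the unadjusted threshold but not adjustment (limma adjusted p = 0.276, two-sided exact permutation p = 0.0476), and leaving out any of 8 of the 12 livers (LacZ replicates 3 to 6 and HuR KD replicates 1, 2, 4 and 6), or scaling by median-of-ratios factors (0.17), lost the call. AKAP1 mRNA per PRKAR2A mRNA was 1.89 ± 0.234 with LacZ and 3.77 ± 0.719 with HuR KD in WT livers, and 1.56 ± 0.376 and 3.07 ± 0.539 in humanized livers. These ratios, given as a description, did not overlap between the groups in either species. The WT ratio has as its denominator the Prkar2a value by which the set was chosen, and Akap1 itself overlapped there. In humanized livers the groups of AKAP1 and of PRKAR2A were each apart, in opposite directions. Their ratio there could therefore not overlap and adds nothing to them.

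Nuclear effectors. CREB1, the transcription factor that PKA phosphorylates, was 1.96, 1.68, 3.45 and 1.35 TPM in HuR KD and 4.15, 1.95, 3.25 and 4.80 TPM in LacZ humanized livers. HuR KD replicate 3 and LacZ replicate 2 brought the groups into overlap. The log2 difference of -0.55 (SE 0.273) did not pass the threshold (limma adjusted p = 0.496, two-sided exact permutation p = 0.143), and it passed the unadjusted one without either of these livers (-0.73 and -0.74). In WT livers Creb1, on chromosome 1 (64532645 to 64604548, plus strand), ranged from 5.25 to 7.07 TPM with HuR KD (median 5.99) and from 3.58 to 6.65 TPM with LacZ (median 5.77). The lowest value came from LacZ replicate 2, the shallow library, on 29 reads. The log2 difference was 0.13 (SE 0.122, limma adjusted p = 0.674), with no threshold passed, and 0.024 without that library.

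CRTC2 is the coactivator that moves to the nucleus in fasting and joins CREB. In humanized livers it was 0.89, 1.48, 2.34 and 5.38 TPM with HuR KD and 2.28, 5.33, 1.65 and 1.19 TPM with LacZ. The high liver of each group was HuR KD replicate 4 and LacZ replicate 2, the same 2 livers that stood apart in the whole table, and counts were as low as 5 reads. The log2 difference was -0.07 (SE 0.431, limma adjusted p = 0.977), and without these 2 livers -0.10. Crtc2 in WT livers, on chromosome 3 (90254163 to 90264125, plus strand), ranged from 15.6 to 19.6 TPM with HuR KD (median 16.4) and from 12.8 to 19.9 TPM with LacZ (median 15.3). The knockdown range lay inside that of the controls (log2 difference 0.14, SE 0.097, limma adjusted p = 0.534), and the unadjusted threshold was passed with voom on recovered reads and without LacZ replicate 2 (both 0.21).

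**Figure D3:**
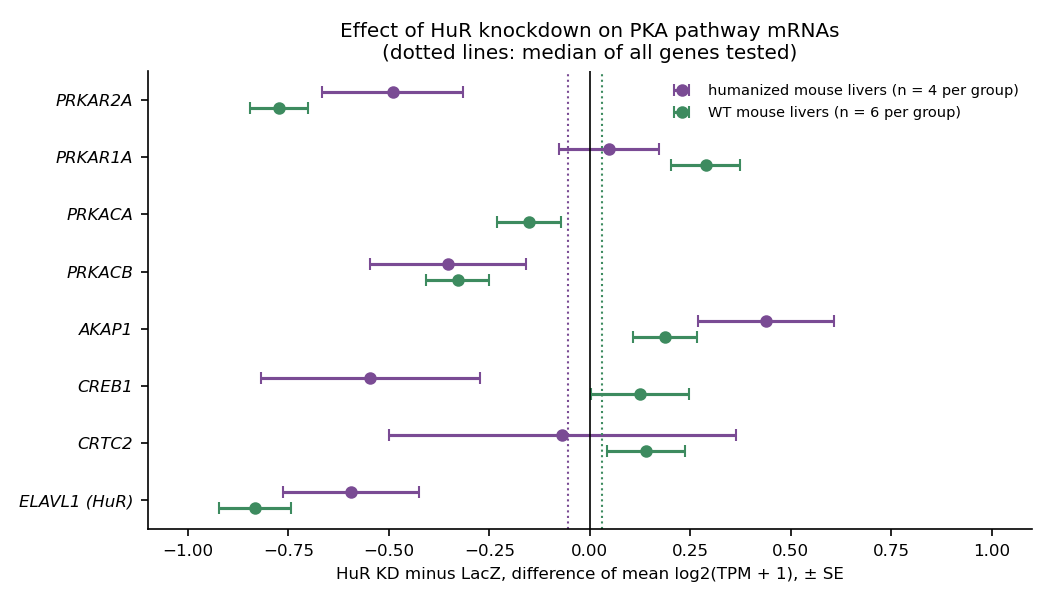
Difference of mean log2(TPM + 1) between HuR KD and LacZ livers, with its SE, for the 7 members and ELAVL1 in humanized (n = 4 per group) and WT livers (n = 6 per group). Dotted lines mark the median of all genes tested (-0.05 humanized, 0.03 WT). PRKAR2A and PRKACB lie left of 0 and AKAP1 right of 0 in both species, CREB1 lies on opposite sides, and PRKACA has no humanized value.

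Counted together, all 7 members passed the filter of a mean TPM of at least 1 in WT livers and 6 of 7 in humanized livers, PRKACA being listed at 0. Past the unadjusted threshold were 1 higher (AKAP1) and 1 lower (PRKAR2A) of 6 in humanized livers, where 11.5% of all genes tested passed it (3.6% higher, 7.87% lower). In WT livers 2 higher (Prkar1a and Akap1) and 1 lower (Prkacb) of the 6 members other than Prkar2a passed it, against 16% of all genes tested (9.09% higher, 6.94% lower). After adjustment 0 of these members passed, against 0.212% of human and 0.888% of mouse genes. The median log2 difference was -0.21 over the 6 human and 0.13 over the 7 mouse members, and -0.05 and 0.03 over all genes tested.

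The effects in the 2 species were compared in a joint limma fit over 8206 genes with the same symbol, as the humanized minus the WT log2 difference. It was -0.02 for PRKACB (95% interval -0.40 to 0.35, adjusted p = 0.964), 0.25 for AKAP1 (-0.10 to 0.60, adjusted p = 0.447), -0.24 for PRKAR1A (-0.54 to 0.05, adjusted p = 0.376) and -0.21 for CRTC2 (-0.98 to 0.56, adjusted p = 0.816). CREB1 differed by -0.67 (-1.22 to -0.13), past the unadjusted threshold but not adjustment (limma adjusted p = 0.150), as did 19.7% of all pairs at the unadjusted threshold and 5.01% after adjustment. Without WT LacZ replicate 2 it was -0.57, still past the unadjusted threshold. Without the 2 livers that stood apart its difference was -0.74 with an adjusted limma p of 0.0478, and the unadjusted call was lost without humanized HuR KD replicate 4 (-0.55) or LacZ replicate 4 (-0.54). PRKAR2A, at -0.49 in humanized and -0.77 in WT livers, was not tested here because the WT value was used to choose it. The intervals of the 4 members that missed the threshold are too wide to say that the species responded alike.

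Among all genes with a mean of at least 5 TPM, those whose log2(TPM + 1) followed that of Prkar2a most closely over the 12 WT livers were Elavl1 (Pearson r = 0.974), C2cd2 (0.960), Gnl3l (0.958), Suclg2 (0.958) and Slc35a5 (0.957), out of 9554 genes. Each was lower with HuR KD, and the 12 points share the contrast between the groups. That contrast chose Prkar2a, and Elavl1 is the gene knocked down, so a high r between them was fixed in advance. The r values are a description only. In the 8 humanized livers the closest of 6447 genes to PRKAR2A were EIF3E (0.988), ITPRID2 (0.981), UPB1 (0.980), APEX1 (0.979) and KPNB1 (0.977). The lists held no symbol in common.

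**Figure D4:**
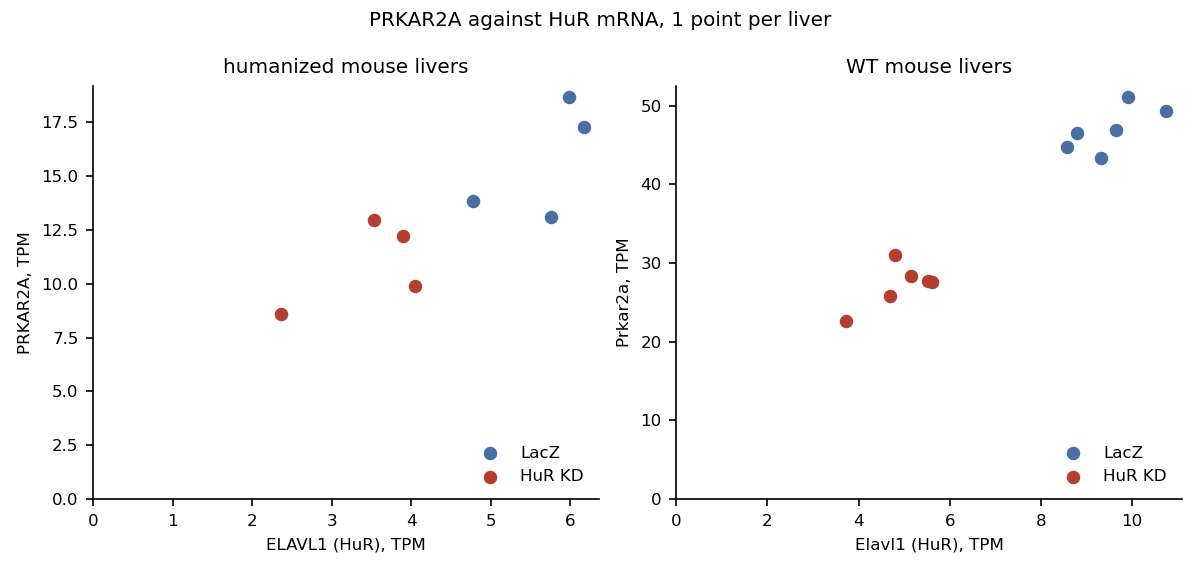
TPM of PRKAR2A against TPM of ELAVL1 (HuR), 1 point per liver, for humanized livers (left) and WT livers (right). In WT livers HuR KD (Elavl1 up to 5.62 TPM, Prkar2a up to 31.0 TPM) and LacZ (from 8.58 and 43.3 TPM) form separate clouds, and in humanized livers they lie closer together (PRKAR2A up to 12.96 against from 13.08 TPM). The WT contrast chose Prkar2a and Elavl1 is the gene knocked down, so the separate WT clouds were fixed in advance.

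The other genes of the pathway were taken as 10 lists of 108 genes by their role, of which 76 were tested in WT and 62 in humanized livers. Past the unadjusted threshold were 10 higher and 7 lower in WT livers and 1 higher and 7 lower in humanized livers, and 1 gene, mouse Atf1, also passed adjustment. Of all genes tested, 9.09% were higher and 6.94% lower in WT livers and 3.6% higher and 7.87% lower in humanized livers. Genes that were higher made up 31.3% of all human calls, but 47.5% with median-of-ratios factors, and 56.7% and 48.0% of mouse calls. The median log2 difference ran from -0.56 to 0.28 over the human lists and from -0.19 to 0.20 over the mouse lists. The genes named next, in the order of the pathway, are up to 3 of each list with the smallest p among those past the threshold, or else its most abundant gene.

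Of 10 tested receptors and G proteins upstream of the cyclases in WT livers 2 were lower, against 6.94% of all mouse genes tested. They were Vipr1, a receptor for vasoactive intestinal peptide (18.7 to 27.5 TPM with LacZ, 15.3 to 19.6 with HuR KD, log2 difference -0.31, limma adjusted p = 0.163), and the beta-1 adrenergic receptor Adrb1 (-0.30, limma adjusted p = 0.299). In humanized livers 0 of 5 passed, and the G protein alpha subunit GNAS, the most abundant, differed by -0.16 (limma adjusted p = 0.691). Adcy9, an adenylyl cyclase that makes cAMP, ranged from 21.2 to 27.3 TPM with LacZ and from 28.1 to 37.9 TPM with HuR KD in WT livers. Its groups did not overlap, as in 1.25% of mouse genes tested with higher values in HuR KD (log2 difference 0.30, SE 0.081, limma adjusted p = 0.1004, two-sided exact permutation p = 0.00216, the smallest possible). Adcy7 was lower (-0.21, limma adjusted p = 0.255), and 0 of 4 human cyclases passed, with ADCY6 at 0.10 (limma adjusted p = 0.905).

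Phosphodiesterases, which break cAMP down, included PDE8A, the only listed gene past the unadjusted threshold in both species. PDE8A was 8.49, 7.26, 7.15 and 8.82 TPM with HuR KD and 13.0, 10.3, 11.9 and 17.7 TPM with LacZ in humanized livers (log2 difference -0.65, SE 0.174, limma adjusted p = 0.180, two-sided exact permutation p = 0.0286). Its groups there did not overlap, as in 5.03% of human genes tested with lower values in HuR KD. Pde8a in WT livers ranged from 18.6 to 25.1 TPM with HuR KD and from 21.9 to 29.6 TPM with LacZ, with overlap (-0.28, SE 0.096, limma adjusted p = 0.180). PDE3B, which insulin activates, passed the unadjusted threshold in humanized livers (-0.68, limma adjusted p = 0.274), and Pde7b did so in WT livers (-0.23, limma adjusted p = 0.250). In all, 2 of 5 human and 2 of 10 mouse phosphodiesterases tested were lower and 0 were higher. The shares of all genes tested that were lower were 7.87% in humanized and 6.94% in WT livers.

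Of the remaining subunits and the inhibitor peptides, which bind free catalytic subunits, PKIB differed most. It was 11.8, 7.48, 13.3 and 6.70 TPM with HuR KD and 27.5, 13.4, 23.9 and 22.3 TPM with LacZ in humanized livers. The groups did not overlap, as in 5.03% of human genes tested with lower values in HuR KD, although LacZ replicate 2 lay just above HuR KD replicate 3. The mean was 9.81 ± 3.21 against 21.8 ± 6.01 TPM (log2 difference -1.08, SE 0.269, limma adjusted p = 0.149, two-sided exact permutation p = 0.0286). PRKAR1B, a further type I regulatory subunit, was lower as well (2.39 ± 0.582 against 4.07 ± 1.33 TPM, -0.56, limma adjusted p = 0.379). In WT livers Pkig was the only inhibitor tested (0.11, limma adjusted p = 0.615) and Prkx the only other subunit (-0.12, limma adjusted p = 0.659).

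Among 15 other anchoring proteins tested in each species, Akap7 was lower in WT livers (5.77 ± 0.651 against 8.52 ± 1.55 TPM; -0.48, limma adjusted p = 0.058) and Arfgef2 higher (0.15, limma adjusted p = 0.259). In humanized livers EZR was lower (11.6 ± 5.58 against 19.2 ± 2.84 TPM, log2 difference -0.79, limma adjusted p = 0.380), the only one of 15 past the unadjusted threshold. Of all genes tested, 3.6% were higher and 7.87% lower in humanized livers, and 9.09% higher and 6.94% lower in WT livers. Of the effectors of cAMP other than PKA, 0 of 1 human and 0 of 2 mouse genes passed, with RAPGEF4, an exchange factor for Rap, at 0.28 (limma adjusted p = 0.802) and Rapgef4 at -0.27 (limma adjusted p = 0.469).

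Of 10 CREB partners and kinases that restrain CRTC2 tested in WT livers, 4 were higher and 1 lower past the unadjusted threshold, as were 9.09% and 6.94% of all mouse genes tested, and 5 did not pass. The lower one was Atf1, the closest relative of CREB, which ranged from 6.02 to 9.84 TPM with HuR KD and from 10.9 to 13.3 TPM with LacZ. All 6 knockdown livers lay below all controls, as in 1.23% of mouse genes tested, and Atf1 was the only listed gene past adjustment (log2 difference -0.51, SE 0.098, limma adjusted p = 0.038, two-sided exact permutation p = 0.00216). The kinase Sik3 (18.4 ± 1.69 against 15.0 ± 1.23 TPM, 0.28, limma adjusted p = 0.0905) and the acetyltransferase Crebbp (0.23, limma adjusted p = 0.191) were among those that were higher. In humanized livers 0 of 9 passed, with CREBL2 at -0.28 (limma adjusted p = 0.527).

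Of the CREB targets of the fasted liver, 3 of 10 were higher in WT livers, where 9.09% of all genes tested were higher past the unadjusted threshold. G6pc, which releases glucose from glucose 6-phosphate, ranged from 246 to 740 TPM with HuR KD (median 600.4) and from 242 to 372 TPM with LacZ (median 295). Pck1, an enzyme of gluconeogenesis, was 3200 ± 368 against 2610 ± 200 TPM. Both passed the unadjusted threshold only (log2 differences 0.79 and 0.29, limma adjusted p = 0.120 and 0.134), as did Irs2, an adaptor of the insulin receptor (0.52, limma adjusted p = 0.268). G6PC in humanized livers was 192, 248, 237 and 892 TPM with HuR KD and 107, 585, 219 and 211 TPM with LacZ. Its high liver in each group was again HuR KD replicate 4 and LacZ replicate 2, and 0 of 10 human targets passed (G6PC 0.45, limma adjusted p = 0.827).

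Of the PKA substrates of the liver, the calcium channel ITPR2 (-0.48, limma adjusted p = 0.371) was among those lower past the unadjusted threshold and the glycogen synthase GYS2 (0.65, limma adjusted p = 0.312) was higher, of 10 tested in humanized livers. In WT livers 1 of 13 passed, the pyruvate kinase Pklr (0.28, limma adjusted p = 0.310). Among all genes tested, 9.09% were higher in WT livers, and 3.6% were higher and 7.87% lower in humanized livers.

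**Figure D5:**
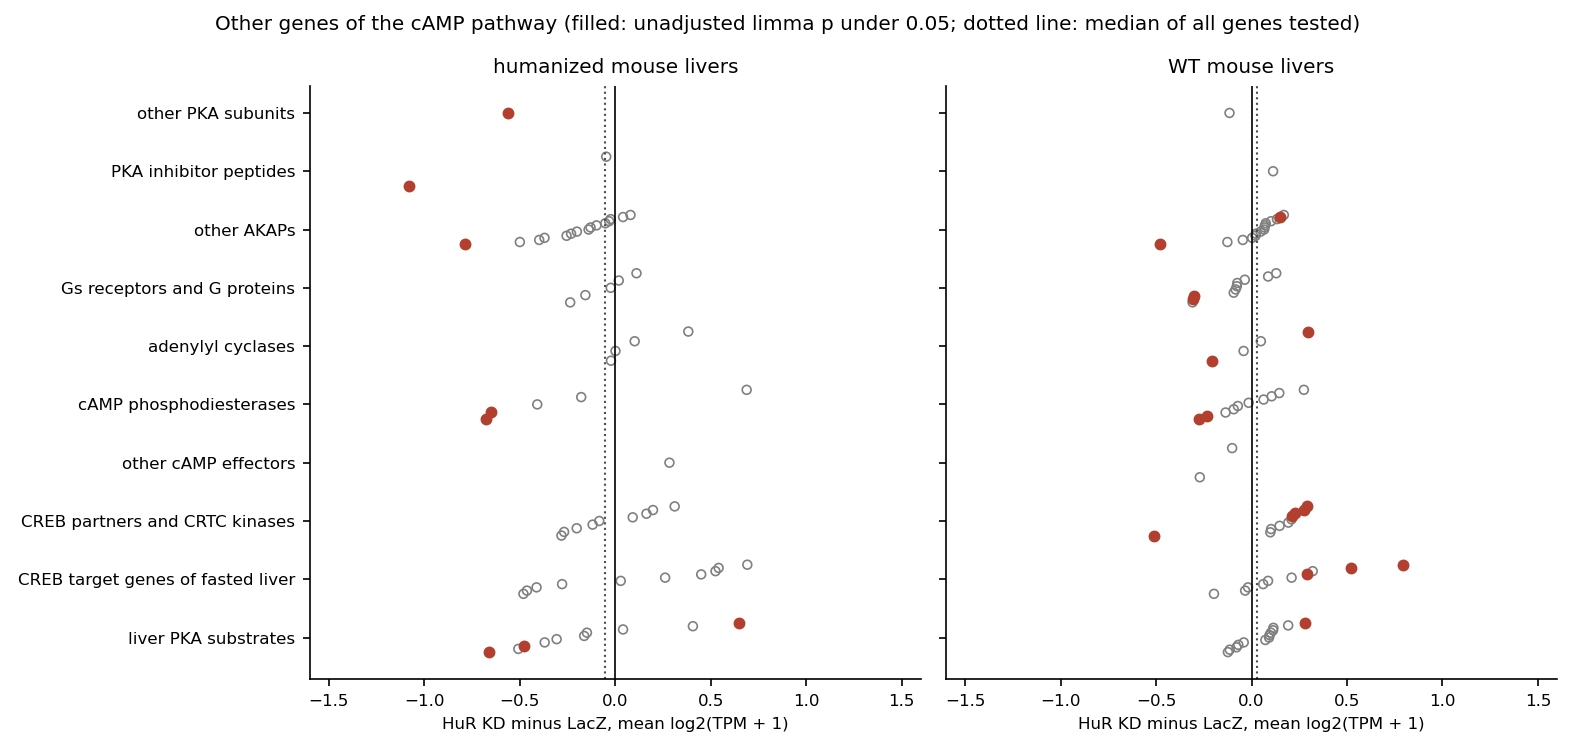
Difference of mean log2(TPM + 1) between HuR KD and LacZ for every tested gene of the 10 lists, 1 point per gene, in humanized livers (left, 62 genes) and WT livers (right, 76 genes). Filled points passed the unadjusted limma threshold and dotted lines mark the median of all genes tested. Filled points lie mostly left of 0 in humanized livers (7 lower, 1 higher) and on both sides in WT livers (10 higher, 7 lower).

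Some markers of other cells and of interferon signalling differed between HuR KD and LacZ past the unadjusted threshold. For comparison, 9.09% of all genes tested were higher and 6.94% lower in WT livers, and 3.6% higher and 7.87% lower in humanized livers. Lists in which 1 gene passed are too short to set against these shares. In WT livers all 7 interferon response genes tested were lower past the unadjusted threshold (summed TPM from 74.8 to 143 with HuR KD and from 127 to 284 with LacZ), as were 3 of 8 macrophage markers (summed TPM from 154 to 306 and from 254 to 335), 1 of 3 T and NK cell markers and 1 of 5 stellate cell markers, while 1 of 5 sinusoidal endothelial markers was higher and 0 of 4 hepatocyte, 0 of 2 cholangiocyte and 0 of 3 neutrophil markers passed. In humanized livers 2 of 4 tested cholangiocyte markers (5.26 to 29.4 summed TPM with HuR KD, 11.5 to 44.4 with LacZ) and 1 of 2 tested stellate cell markers (2.73 to 4.80 and 5.26 to 7.17) were lower, and 0 of 5 hepatocyte and 0 of 6 interferon response genes passed. The part of these cells in the values of the PKA genes was not tested.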

How the data were processed

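RNA of 20 livers was analysed, each from 1 mouse (labels and methods of the study). After trimming, the authors used HISAT2 for alignment, against human and mouse sequence together in the case of humanized livers, and featureCounts for counting, and they deposited TPM for 60607 human and 55335 mouse genes. The formula and gene lengths behind the TPM are not given in the sources used here, and 0 columns were left unused. The members, lists and tests were chosen with earlier results of these data known.

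Genes averaging 1 TPM or more were compared as log2(TPM + 1) with limma 3.58.1 (lmFit, eBayes with trend; R 4.3.3), each table apart. A fold change on this scale understates that of low genes. The study's threshold, p under 0.05 without adjustment, was kept, with Benjamini-Hochberg adjusted p over all genes beside them. Single members were compared by two-sided exact permutation (smallest p 0.0286 for 70 groupings of humanized and 0.00216 for 924 of WT livers). From each list up to 3 genes past the threshold with the smallest p were named, else the most abundant; 1 gene named by this rule is not reported here. Reads were recovered as whole multiples of the TPM steps (100% of 18702 human and 25110 mouse genes with values in at least 4 libraries; Python 3.11.15). On simulated tables in which 200 genes differed by 1.5 (log2), the fits found 96.5% at the unadjusted threshold in the humanized and 99.5% in the WT design. That shift is larger than the log2 difference of any member, so these shares do not say how often differences of the members' size are found. Motifs came from RefSeq promoters and GENCODE M21 transcripts; human sequences and coordinates were not used here.

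Alternatives were a pseudocount of 0.1, a filter at 5 TPM or none, scaling by median-of-ratios factors, by quantiles or without mitochondrial genes, eBayes without trend, a replicate block, voom on recovered reads and each liver left out. Leaving out 2 humanized livers together was added after seeing the data.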

Additional observations from a re-analysis of the deposited data

Results flagged for a closer look

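Of 26 groups of 4 to 6 livers looked at, 1 held a liver far from the others, where chance gives about 5% of groups. PRKACB in humanized HuR KD replicate 4 was 2.20 TPM, against 3.82 to 4.10 TPM in the other 3 HuR KD livers, and its gap to the nearest was 0.850 of the group's range (limit 0.829). This liver is also 1 of the 2 that stood apart in the whole table. Without it the log2 difference of PRKACB was -0.19.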

How the results depend on the processing

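In humanized livers the number of members past the unadjusted threshold was 2, and 1 when scaled without mitochondrial genes, 0 to 2 with each liver left out (0 without HuR KD replicate 1, 1 without HuR KD replicate 2 or LacZ replicate 3 or 4) and 3 without the 2 livers that stood apart. The exact permutation test passed 3 members there (PRKAR2A, PRKACB and AKAP1), and 1 when scaled without mitochondrial genes. With 4 against 4 livers only groups without overlap pass it, and 7.16% of all human genes tested had such groups. Genes past the threshold were 1461, and 931 of 6447 with a mean TPM of at least 5, fewer genes being tested. In WT livers the count of members was 3 to 4 with all livers kept and 2 to 4 with 1 left out. The members whose effects differed between species numbered 1, and 0 with a mean TPM of at least 5, where CREB1, CRTC2 and PRKACB leave the fit, 2 with median-of-ratios factors, 2 with quantile normalization and 0 to 2 with 1 liver left out (0 without humanized HuR KD replicate 4 or LacZ replicate 4, 2 without WT HuR KD replicate 6).

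Adjusted counts of genes were 27 human (0 to 66 with all livers kept, 0 to 172 with 1 left out) and 134 mouse (17 to 530, and 30 to 371). Genes higher made up 31.3% of human calls and 47.5% with median-of-ratios factors, and 56.7% and 48.0% of mouse calls. With the replicate block, 2 humanized and 3 WT members passed, as without it, and 0 human and 17 mouse genes passed adjustment. Same-numbered livers did not deviate together (r from -0.249 to 0.206), so the numbers do not pair them, and the block changed no call of a member.

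Signs turned for 4 values that passed no threshold, among them the species difference of CRTC2 (-0.21 with all livers). With 1 liver left out, PRKAR1A in humanized livers ranged from -0.0066 to 0.10, CRTC2 there from -0.41 to 0.24, the species difference of PRKACB from -0.089 to 0.14 and that of CRTC2 from -0.55 to 0.10. CRTC2 in humanized livers was 0.053 with voom. The species difference of PRKACB was 0.054 with median-of-ratios factors, 0.048 with quantile normalization and 0.085 without the 2 livers that stood apart. The cause was not tested. Depth limits CRTC2, CREB1 and PRKACB in humanized livers, where a value rests on as few as 5, 37 and 42 reads.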
